A study of Mus musculus with 18 samples.

Results

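The 8 genes Rnf43, Nsg2, Ldhb, Camk2b, Atp8b4, Tmem121, Ctla2a and Gem were chosen from 55494 genes in the RNA table because their level differed in the same direction between OT2 and OT1 thymocytes in every host. The OT2 against OT1 difference is therefore how they were found, and it is given below as a description with no test. What was not used to choose them is where in thymocyte development that difference sits: whether a gene differed between the lines in every class of cells, or was tied to a stage that one line held more of. 3 of the genes were higher in OT2 cells (Rnf43, Nsg2, Ldhb) and 5 were higher in OT1 cells (Camk2b, Atp8b4, Tmem121, Ctla2a, Gem).

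Donor thymocytes came from 6 bone marrow chimeras, 1 mouse per receptor and host, analysed 6 weeks after transplantation at 14 weeks of age. OT1 is a transgenic T cell receptor restricted by class I MHC and OT2 one restricted by class II MHC, both specific for ovalbumin, and both donors carried CD45.1.2. Each host received 30% donor marrow and 70% wild-type CD45.1 competitor marrow. PosSelected hosts were wild-type C57BL/6 mice and NegSelected hosts were RIPmOVA mice, in which the Ins2 promoter drives a membrane-bound ovalbumin fused to TFRC. The NoSelection host lacked B2m for OT1, and for OT2 it is given as an MHCII knockout in one label and as a B2m knockout in others, a conflict that was not resolved here. PosSelected and NegSelected hosts carried CD45.2 and NoSelection hosts CD45.1. Sorted cells were CD44lo CD45.1.2+ Va2+ Vb5+, and their RNA and surface antibodies were counted with the 10x Genomics 5' chemistry, all 6 mice in 1 lane told apart by hashtags. The labels give each library as 1 mouse, not a pool, so a difference between receptors rests on 3 mice against 3, and hosts are not replicates of each other.

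Thymocytes pass from a CD4-CD8- stage through a CD4+CD8+ stage, where the alpha beta receptor is tested against self MHC, to CD4+CD8- or CD4-CD8+ single-positive cells. Mice with a rearranged alpha beta transgene also hold many mature-looking CD4-CD8- thymocytes that share features with gamma delta T cells, because the receptor is expressed early. Rnf43 encodes a membrane ubiquitin ligase that removes Frizzled receptors and so dampens Wnt signalling, a pathway that acts through TCF1 and LEF1 in early thymocytes. Nsg2 encodes an endosomal trafficking protein best known from neurons, and Ldhb the lactate dehydrogenase subunit that favours the use of lactate. Camk2b encodes the beta subunit of calcium/calmodulin-dependent kinase II, Atp8b4 a phospholipid flippase, Tmem121 a multipass membrane protein, Ctla2a an inhibitor of papain-like cysteine proteases that resembles a cathepsin propeptide, and Gem a small GTPase of the RGK family that binds calcium channel beta subunits.

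The labels give all 6 mice as female, and donor cells of 1 line went against what that label leads one to look for. Xist, the RNA that coats the inactive X chromosome of female cells, had 9, 4 and 1 UMIs (unique molecular identifiers, 1 per RNA molecule counted) in the OT1 mice, given here and below in the host order NoSelection, PosSelected, NegSelected, and 254, 294 and 299 UMIs in the OT2 mice. The Y-linked genes Ddx3y, Eif2s3y and Uty had 0 UMIs in all 6 mice and Kdm5d had 2, both in the OT2 PosSelected mouse, so these genes gave no Y signal in either line. The 2 lines therefore differed in Xist as well as in their receptor, in every host, and receptor, line and the Xist difference cannot be told apart in these mice. No cell barcode was shared between mice. Depth also differed with the line: the mice had 525843 to 1867488 RNA UMIs each, and the median cell had 5134.5 UMIs in OT1 and 2893 in OT2.

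Promoters are shown for 4 genes, 1 for each pattern described below: Rnf43, which differed in every gate, Ldhb, which was highest in CD4+CD8+ cells, Tmem121, which was largely in CD4-CD8- cells, and Ctla2a, whose line difference lay mainly in CD4-CD8- cells. They are the 250 bases before the annotated start from RefSeq (GRCm38.p6), which had an entry for 7 of the 8 genes. The windows are chr11:87662837-87663086 on the plus strand for Rnf43, chr6:142507958-142508207 on the minus strand for Ldhb, chr12:113185653-113185902 on the plus strand for Tmem121 and chr13:60936626-60936875 on the minus strand for Ctla2a, each printed 5′ to 3′ with motif matches in capitals.
Rnf43: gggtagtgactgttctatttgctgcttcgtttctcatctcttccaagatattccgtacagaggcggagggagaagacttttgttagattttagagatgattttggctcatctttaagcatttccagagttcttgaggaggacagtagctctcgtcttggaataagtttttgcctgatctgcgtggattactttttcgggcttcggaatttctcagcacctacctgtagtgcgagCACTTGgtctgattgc
Ldhb: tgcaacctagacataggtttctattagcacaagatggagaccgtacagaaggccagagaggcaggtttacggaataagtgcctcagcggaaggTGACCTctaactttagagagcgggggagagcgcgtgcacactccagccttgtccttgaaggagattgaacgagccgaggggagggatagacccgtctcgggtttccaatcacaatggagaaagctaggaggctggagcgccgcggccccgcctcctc
Tmem121: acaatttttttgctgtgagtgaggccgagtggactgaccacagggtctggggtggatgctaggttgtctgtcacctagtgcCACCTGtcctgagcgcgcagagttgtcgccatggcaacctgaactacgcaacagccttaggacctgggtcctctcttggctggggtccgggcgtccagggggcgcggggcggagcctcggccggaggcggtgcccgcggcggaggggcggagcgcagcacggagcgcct
Ctla2a: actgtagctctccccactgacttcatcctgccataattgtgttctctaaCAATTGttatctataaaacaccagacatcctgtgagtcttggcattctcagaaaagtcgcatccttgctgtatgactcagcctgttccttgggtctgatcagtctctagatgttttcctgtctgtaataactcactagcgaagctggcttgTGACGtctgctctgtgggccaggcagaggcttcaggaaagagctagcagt
The motifs searched on both strands were the E-box (CANNTG), the TCF/LEF motif (CTTTGA), the ROR motif (AGGTCA) and the CRE half-site (TGACG). Counting the base before the gene start as -1, Rnf43 held an E-box at -16, Ldhb a ROR match at -157, Tmem121 an E-box at -169, and Ctla2a an E-box at -201 and a CRE half-site at -50. None of these matches overlapped another. Over 32851 promoters of the same length, 66.2% held an E-box, 13.8% the TCF/LEF motif, 14.0% the ROR motif and 17.8% the CRE half-site. The TCF/LEF letters were in none of the 4 windows. The Tmem121 window had 66.4% G and C and 20 CpG pairs and the Ctla2a window 46.8% and 3, against a median of 52.4% and 6 over the 32851 promoters.

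Rnf43 RNA was rare in OT1 thymocytes and was found in most OT2 thymocytes. As UMI counts scaled to the RNA total of the mouse (CPM), its level was 2.68, 3.22 and 3.13 in the OT1 mice, from 5, 6 and 4 UMIs. In OT2 it was 411, 407 and 567 CPM, from 216, 328 and 334 UMIs. The lowest OT2 mouse was thus far above the highest OT1 mouse, and the ratio of OT2 to OT1 was 153 in NoSelection hosts (95% exact interval 64.7 to 477), 126 in PosSelected hosts (57.4 to 347) and 181 in NegSelected hosts (70.0 to 668). These intervals, like the others given for single mice, cover counting error only. At least 1 Rnf43 UMI was found in 63.5% of OT2 cells (exact interval 59.2% to 67.5%) and in 1.89% of OT1 cells (1.06% to 3.10%). After every cell was thinned to 1500 UMIs, the shares were 42.3%, 40.4% and 48.7% in the OT2 mice and 0.336%, 0.370% and 1.01% in the OT1 mice. Xist UMIs were found in 0 of the 15 OT1 cells with an Rnf43 UMI and in 11 of the 777 without one, whereas 222 of the 342 OT2 cells with an Rnf43 UMI (64.9%) and 100 of the 197 without (50.8%) held one. The T cell receptor beta segment gene Trbv12-2 showed the same order in OT2, at 71.3% and 57.4%. These cells were not matched for depth, so a link between Rnf43 and Xist cell by cell was not tested.

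The other OT2-high genes differed by far less and were measured in both lines. Nsg2 stood at 47.7, 78.4 and 37.6 CPM in OT1 and at 148, 294 and 221 CPM in OT2. All 3 OT2 mice were above all 3 OT1 mice, with ratios from 3.11 to 5.87. Ldhb stood at 34.8, 60.7 and 48.6 CPM in OT1 and at 190, 96.9 and 202 CPM in OT2. Its ratio was 1.60 in PosSelected hosts (exact interval 1.18 to 2.15) and 4.16 to 5.46 in the other hosts, so PosSelected was the host in which the lines lay closest.

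In OT1 the 5 OT1-high genes were each lowest in the PosSelected mouse. Camk2b was at 220, 90.8 and 168 CPM in OT1 and at 49.4, 11.2 and 40.7 CPM in OT2. Atp8b4 was at 336, 121 and 337 CPM in OT1 and at 116, 43.5 and 69.6 CPM in OT2. Tmem121 was at 250, 61.2 and 247 CPM in OT1 and at 79.9, 24.8 and 32.2 CPM in OT2. For Camk2b and Atp8b4 every OT1 mouse was above every OT2 mouse, whereas for Tmem121 the OT1 PosSelected mouse lay below the OT2 NoSelection mouse. Ctla2a was at 143, 54.8 and 189 CPM in OT1 and at 5.71, 11.2 and 18.7 CPM in OT2, the last from 3, 9 and 11 UMIs. Gem was at 184, 58.6 and 165 CPM in OT1 and at 51.3, 9.93 and 5.09 CPM in OT2, the last from 27, 8 and 3 UMIs. Every OT1 mouse was above every OT2 mouse for both genes, and in OT2 the lowest mouse was NoSelection for Ctla2a and NegSelected for Gem.

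**Figure D1:**
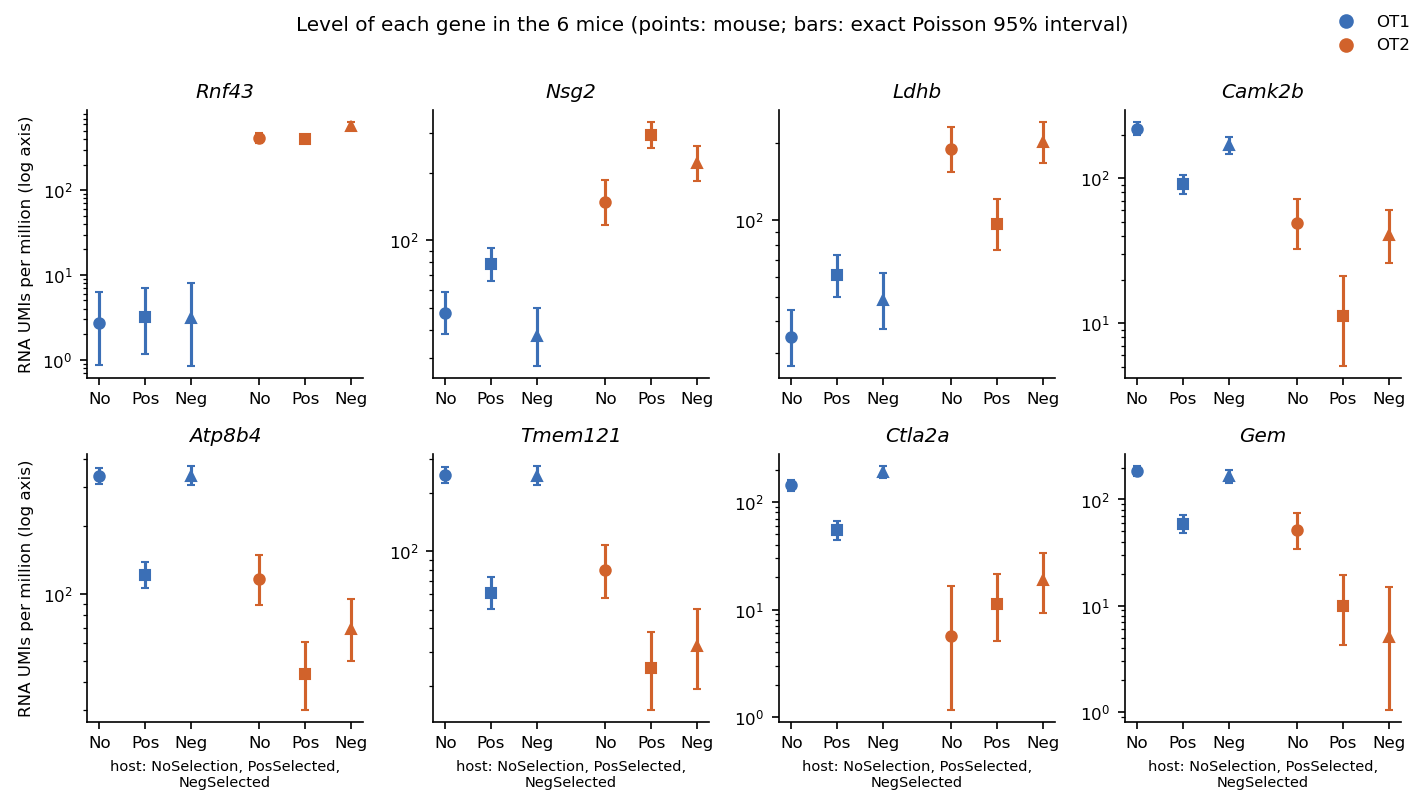
RNA level in CPM for each gene (log axis) in the 3 OT1 mice (blue) and 3 OT2 mice (orange) by host; points are mice and bars exact Poisson 95% intervals. Rnf43 lies at 2.68 to 3.22 in OT1 and 407 to 567 in OT2, and Tmem121 is the gene whose lines overlap.

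In the fit over all 9092 genes with receptor and host terms, the log2 fold change of OT2 over OT1 was 7.15 for Rnf43 (SE 0.23), 1.99 for Nsg2 (SE 0.20) and 1.68 for Ldhb (SE 0.31). It was -2.36 for Camk2b (SE 0.22), -1.80 for Atp8b4 (SE 0.21), -1.99 for Tmem121 (SE 0.30), -3.34 for Ctla2a (SE 0.35) and -2.76 for Gem (SE 0.43). By size Rnf43 was rank 5 of 9092 genes from the top and Ctla2a rank 14 from the bottom. The lines did not overlap for 7 of the 8 genes, and for 18.8% of all genes tested. The same order in every host held for 8 of 8, as their choice required, and for 35.9% of all genes, and 1.07% of genes passed an adjusted p of 0.05 for this contrast (0.671% higher and 0.396% lower in OT2), from which nothing is read here.

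Between hosts, no gene of the 8 passed the test. PosSelected minus NoSelection gave log2 fold changes of -1.41 for Atp8b4 (SE 0.26), -1.44 for Camk2b (SE 0.26), -1.89 for Tmem121 (SE 0.37), -1.88 for Gem (SE 0.49) and 0.90 for Nsg2 (SE 0.24). The lowest adjusted p among the 8, in edgeR's quasi-likelihood test with Benjamini-Hochberg adjustment over 9092 genes, was 0.159, for Camk2b. NegSelected minus PosSelected ran the other way for Atp8b4 (1.14, SE 0.26), Camk2b (1.09, SE 0.26) and Tmem121 (1.48, SE 0.37). It did so for Ctla2a too (1.55, SE 0.38, against -1.01, SE 0.38), and adjusted p for these genes ran from 0.545 to 0.578. The same PosSelected mice enter both contrasts, so a low level in them moves the contrasts in opposite directions. At an unadjusted p under 0.05 stood 6 of the 8 genes in PosSelected minus NoSelection, 6 in NegSelected minus PosSelected and 0 in NegSelected minus NoSelection, against 664, 418 and 236 of the 9092 genes. In the same order 0.011%, 0% and 0% of genes passed at an adjusted p of 0.05, so few genes of any kind did. The median log2 fold change over the 8 was -1.21, 1.11 and -0.06, against -0.01 over all genes in each. DESeq2 called Atp8b4 and Tmem121 in PosSelected minus NoSelection, among 33 genes called, and none of the 8 in the other contrasts, where it called 6 and 0 genes. The fit has 2 residual degrees of freedom and single mice decide its count: PosSelected minus NoSelection called 5 of the 8 among 75 genes without the OT2 PosSelected mouse, 4 among 248 without OT1 NoSelection, 3 among 28 without OT2 NoSelection and 1 among 162 without OT1 PosSelected. NegSelected minus PosSelected called 3 among 59 genes without OT2 NoSelection, 2 among 22 without OT2 PosSelected and 1 among 30 without OT1 NoSelection.

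In OT1 the share of CD4-CD8- cells was also lowest in the PosSelected mouse, and its part in the host differences was not tested. Gates were set on CD4 and CD8A antibody counts, not on RNA, and the CD4-CD8- gate held 251 of 306, 138 of 282 and 147 of 204 OT1 cells and 55 of 108, 85 of 254 and 51 of 177 OT2 cells. In OT2 this share was lowest in the NegSelected mouse (50.9%, 33.5% and 28.8%). Camk2b was higher there than in the OT2 PosSelected mouse, at a ratio of 3.64 (exact interval 1.63 to 8.91). The intervals of the other OT1-high genes included 1: Atp8b4 (1.60, 0.99 to 2.59), Tmem121 (1.30, 0.66 to 2.56), Ctla2a (1.67, 0.63 to 4.56) and Gem (0.51, 0.088 to 2.13). The summed level of 5 gamma delta markers (Sox13, Trdc, Trgc1, Trgc2, Trgc4) was 2062, 767 and 2094 CPM in OT1 and 1004, 292 and 434 CPM in OT2. That of 4 mast cell and progenitor markers (Cpa3, Kit, Cd34, Mpo) was 725, 176 and 809 CPM in OT1 and 162, 74.5 and 52.6 CPM in OT2, with Cd34 and Mpo at 0 in every mouse. Both sums dipped in the OT1 PosSelected mouse, as the 5 OT1-high genes did. Fewer cells of a class and less RNA per cell cannot be told apart in sums over all cells of a mouse, so the genes were next compared gate by gate.

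The CD4-CD8- gate needs a caution before its results. Its cells had a median of 2446 antibody UMIs against 4878 to 5480 in the other gates, and its OT2 cells had Cd4 RNA at 116 CPM and Cd8a RNA at 197 CPM. Within this gate the median was 3510.5 antibody UMIs in OT1 and 1095 in OT2. Comparisons of the lines in it may therefore set unlike cells side by side. Thresholds on antibody counts scaled to each cell's antibody total, chosen after the data were seen, changed the gate of 327 of the 1331 cells. With them the CD4-CD8- gate shrank from 727 to 547 cells, its share was lowest in the PosSelected mouse of OT2 too (45.4%, 8.66% and 16.9%), and its OT2 cells had Cd4 RNA at 20.8 CPM and Cd8a RNA at 54.4 CPM. Results for both thresholds are given below, called raw and scaled, and values are from raw thresholds unless scaled is named.

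Rnf43 differed between the lines in every gate. Summed over the 3 mice of a line, it was at 425 CPM in OT2 CD4-CD8- cells against 3.10 in OT1, and at 796 against 3.68 CPM in CD4+CD8+ cells. In CD4-CD8+ cells it was at 494 CPM against 3.004. In CD4+CD8- cells OT2 had 337 CPM and OT1 0 UMIs in 44 cells, at least 20.7-fold higher when OT1 is put at the level 3 UMIs over the group would give, 16.2 CPM. Scaled thresholds gave ratios of 146, 127, 137 and 95.9 in CD4-CD8-, CD4+CD8+, CD4+CD8- and CD4-CD8+ cells. Within OT2, Rnf43 was highest in CD4+CD8+ cells of all 3 mice, at 700, 673 and 893 CPM. Ldhb aside, Rnf43 was the one of the 8 called between CD4+CD8- and CD4+CD8+ cells, 2 of 8 lower and 0 higher where 1.65% and 2.84% of genes were. The difference was a log2 fold change of -1.02 (SE 0.28, adjusted p = 0.0369, edgeR over 4618 genes and 21 sums with mouse as block), and 4.48% of genes were called in all. It passed under scaled thresholds too (-1.09, SE 0.26, adjusted p = 0.00720, 11.5% of genes called), but not without the OT2 NegSelected, NoSelection or PosSelected mouse (adjusted p = 0.459, 0.0578 and 0.119). Rnf43 thus set the lines apart in each of the 4 gates, and varied among the gates of OT2 by far less.

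Nsg2 and Ldhb followed a stage as well as the line. From CD4-CD8- to CD4+CD8+ cells, Ldhb rose by a log2 fold change of 2.01 (SE 0.30, adjusted p = 0.000131) and Nsg2 rose by 1.49 (SE 0.28, adjusted p = 0.00202). Ldhb was at 667, 411 and 382 CPM in OT2 CD4+CD8+ cells and at 99.4, 87.2 and 156 CPM in OT2 CD4-CD8- cells. In OT1 the PosSelected and NegSelected mice, the OT1 mice with at least 10 CD4+CD8+ cells, went from 52.9 to 124 CPM and from 27.2 to 200 CPM. The rise was therefore in all 5 mice with both gates. Ldhb then fell from CD4+CD8+ to CD4+CD8- cells by 1.62 on the log2 scale (SE 0.39, adjusted p = 0.0159). That call was lost without the OT2 NegSelected mouse (adjusted p = 0.132) or the OT2 PosSelected mouse (adjusted p = 0.219), and held with scaled thresholds (-1.50, SE 0.34, adjusted p = 0.00452). Summed over mice, CD4+CD8- cells had Ldhb at 66.3 CPM in OT2 (exact interval 46.7 to 91.3) and 97.4 CPM in OT1 (57.8 to 154). These sums mix hosts unequally, with 138 of 175 OT2 cells and 24 of 44 OT1 cells from PosSelected hosts. In PosSelected hosts OT2 was at 62.8 CPM against 131 in OT1. In NegSelected hosts OT2 was at 88.5 CPM (10 UMIs) against 66.4 in OT1 (3 UMIs). The OT2 NoSelection mouse had 7 cells in this gate, with 1 Ldhb UMI. With scaled thresholds the summed OT2 to OT1 ratio in CD4+CD8- cells was 0.64 (0.42 to 0.985), while it was 2.45 to 3.44 in the other 3 gates. Nsg2 was higher in OT2 in each gate, with ratios of 3.02, 3.76, 2.01 and 2.58 in CD4-CD8-, CD4+CD8+, CD4+CD8- and CD4-CD8+ cells. With scaled thresholds these Nsg2 ratios were 2.05, 3.01, 2.34 and 2.19.

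Atp8b4, Tmem121 and Gem were lower in CD4+CD8+ than in CD4-CD8- cells. Atp8b4 was also found in OT1 CD4-CD8+ cells, at 84.1 CPM summed over mice against 335 in CD4-CD8- cells. Scaled thresholds put Atp8b4 in CD4-CD8+ cells at 69.3 CPM in OT1 and 72.5 in OT2. Gem in OT2 was at 62.9 CPM in CD4-CD8+ cells (13 UMIs) and 26.8 in CD4-CD8- cells. With scaled thresholds OT2 CD4-CD8+ cells had 0 Gem UMIs. From CD4-CD8- to CD4+CD8+ cells Atp8b4 fell by 3.22 on the log2 scale (SE 0.54, adjusted p = 0.000541), Tmem121 fell by 4.92 (SE 0.84, adjusted p = 0.000693) and Gem fell by 4.21 (SE 1.10, adjusted p = 0.0291). Tmem121 was at 301, 105 and 314 CPM in OT1 CD4-CD8- cells and at 105, 67.1 and 49.1 CPM in OT2 CD4-CD8- cells. In CD4+CD8+ cells it had 1 UMI in 57 OT1 cells and 1 UMI in 114 OT2 cells, so its fitted change depends on the prior count that edgeR adds. Gem had 641 UMIs in OT1 and 24 in OT2 CD4-CD8- cells, and 2 and 0 in CD4+CD8+ cells. Its call was lost without the OT1 NegSelected, OT2 NegSelected or OT2 PosSelected mouse (adjusted p = 0.139, 0.0610 and 0.0649) and with DESeq2 (adjusted p = 0.0605). Ctla2a set the lines apart in CD4-CD8- cells, at 164 CPM in OT1 against 13.4 in OT2. Within OT1 it was lower in each other gate than in CD4-CD8- cells. Summed over mice, Ctla2a was at 22.1 CPM in OT1 against 19.1 in OT2 in CD4+CD8+ cells, from 6 and 5 UMIs. It was at 21.7 against 7.16 in CD4+CD8- cells and at 19.0 against 9.68 in CD4-CD8+ cells. With scaled thresholds the order in CD4+CD8+ cells was the other way, 2.33 CPM in OT1 (1 UMI) against 21.3 in OT2 (8 UMIs), a ratio of 9.12 (exact interval 1.22 to 405). Camk2b and Ctla2a did not pass between CD4+CD8+ and CD4-CD8- cells (log2 fold changes -0.98, SE 0.44, and -1.81, SE 0.64, adjusted p = 0.266 and 0.127).

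In all, 5 of the 8 genes were called between CD4+CD8+ and CD4-CD8- cells, where 3.96% of 4618 genes were. Of the 5, 2 were higher (1.04% of genes) and 3 lower (2.92%). The lines differed in their mix of gates, so choosing genes by line favours genes that differ between gates. The share over all genes is therefore not an even standard for the 8. With scaled thresholds all 8 were called, where 11.7% of 4300 genes were: Rnf43 at 1.18 (SE 0.25, adjusted p = 0.00275), Camk2b at -1.28 (SE 0.30, adjusted p = 0.00528) and Ctla2a at -3.18 (SE 0.65, adjusted p = 0.00159) joined the 5. The median over the 8 was -1.39 with raw thresholds, against 0.02 over all genes. Between CD4-CD8+ and CD4+CD8+ cells none of the 8 was called (2 at an unadjusted p under 0.05, 0 by DESeq2, 0.282% of genes called), but Atp8b4, Ldhb and Rnf43 were with scaled thresholds, where 2.33% of genes were. Between CD4+CD8- and CD4-CD8+ cells none was called with either threshold (1 at an unadjusted p under 0.05 with raw counts, 0 by DESeq2, 0.671% of genes called, 0.498% lower, and 1.93% with scaled thresholds).

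**Figure D2:**
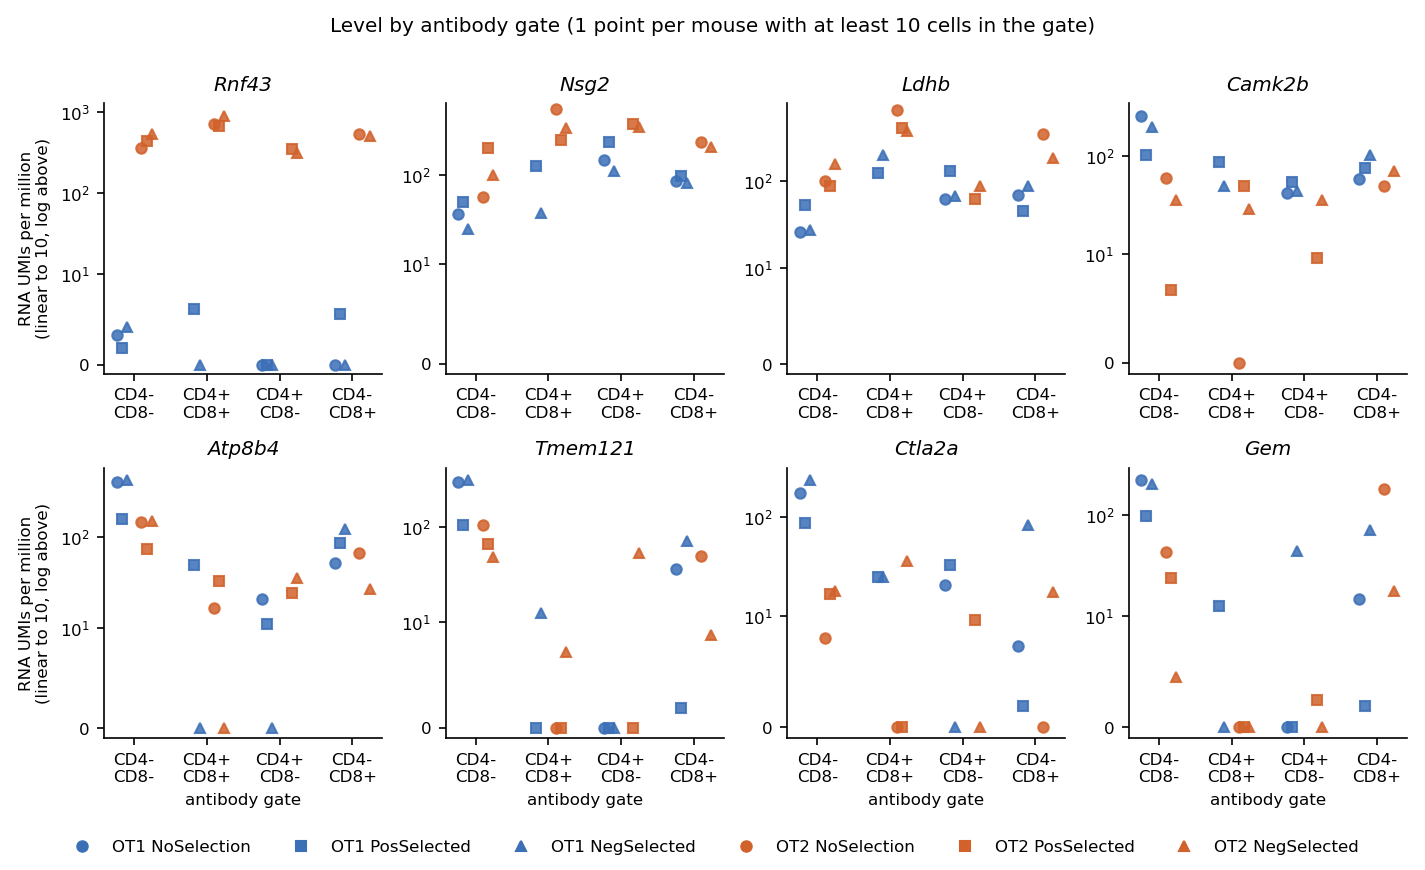
RNA level in CPM by antibody gate (raw thresholds), 1 point per mouse with at least 10 cells in the gate; blue is OT1, orange OT2, and the shape gives the host. The axis is linear up to 10 and logarithmic above. Rnf43 is separated by line in every gate, Ldhb of OT2 peaks in CD4+CD8+ cells, and Atp8b4, Tmem121 and Gem of OT1 are highest in CD4-CD8- cells.

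Whether the line difference itself varied over the gates was tested with receptor by gate terms. None of the 8 genes passed in edgeR, and 0% of 5276 genes did. At an unadjusted p under 0.05 stood 1 of the 8, Gem, with an adjusted p of 0.216 in edgeR, and DESeq2 called none of the 8. Rnf43 had an adjusted p of 0.980, which does not show that its difference was equal in all gates, since 9 residual degrees of freedom were left and OT1 had 0 or 1 UMI in 2 of the gates. For Gem, 11 of the 27 UMIs of the OT2 NoSelection mouse lay in its 14 CD4-CD8+ cells, at 182 CPM. With scaled thresholds OT2 CD4-CD8+ cells had 0 Gem UMIs and its adjusted p was 0.914 in edgeR. Ctla2a had an adjusted p of 0.861 in edgeR with raw thresholds. With scaled thresholds, chosen after the data were seen, the lowest adjusted p of the 8 was 0.0646, also for Ctla2a, and 0.878% of genes were called. Its OT2 to OT1 ratios there were 0.049 in CD4-CD8-, 9.12 in CD4+CD8+, 0.24 in CD4+CD8- and 2.28 (0.23 to 11.99) in CD4-CD8+ cells. With raw thresholds Gem was called without the OT1 NegSelected mouse, as 1 of 2 genes, and without the OT1 PosSelected mouse, among 112 genes.

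Giving each gate the same weight in both lines shows how much of each difference remained at an equal mix of gates. The weighted log2 ratio, averaged over the 3 hosts, was 7.51 for Rnf43 (SD 0.53, n = 3 hosts) against 6.83 (SD 0.25) over all cells, with a pseudocount of 1 CPM. For Ctla2a it was -2.90 (SD 1.12) against -3.30 (SD 1.11), and for Ldhb 1.38 (SD 0.72) against 1.71 (SD 0.92). With this pseudocount the 3 genes kept 109.9%, 88.0% and 80.9% of their log2 difference. The Rnf43 value rests on OT1 gates with 0 to 5 UMIs and was 5.42 with a pseudocount of 10 CPM, and Ldhb was at 1.15 with scaled thresholds. Nsg2 kept 68.8% (1.38 against 2.01), Camk2b 64.6% (-1.52 against -2.36), Gem 63.1% (-1.90 against -3.01), Atp8b4 60.5% (-1.06 against -1.75) and Tmem121 59.7% (-1.15 against -1.93). The direction was kept in all 3 hosts for each gene, but Gem in NoSelection hosts was near 0 at -0.09, with the 14 CD4-CD8+ cells named above in 1 of its 2 gates. With scaled thresholds Gem in that host was at -1.66, Camk2b averaged -1.999, Rnf43 averaged 6.43, and Tmem121 in PosSelected hosts turned to 0.13. Between 2 and 4 gates had 10 cells in both mice of a host, so the weights differed between hosts.

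**Figure D3:**
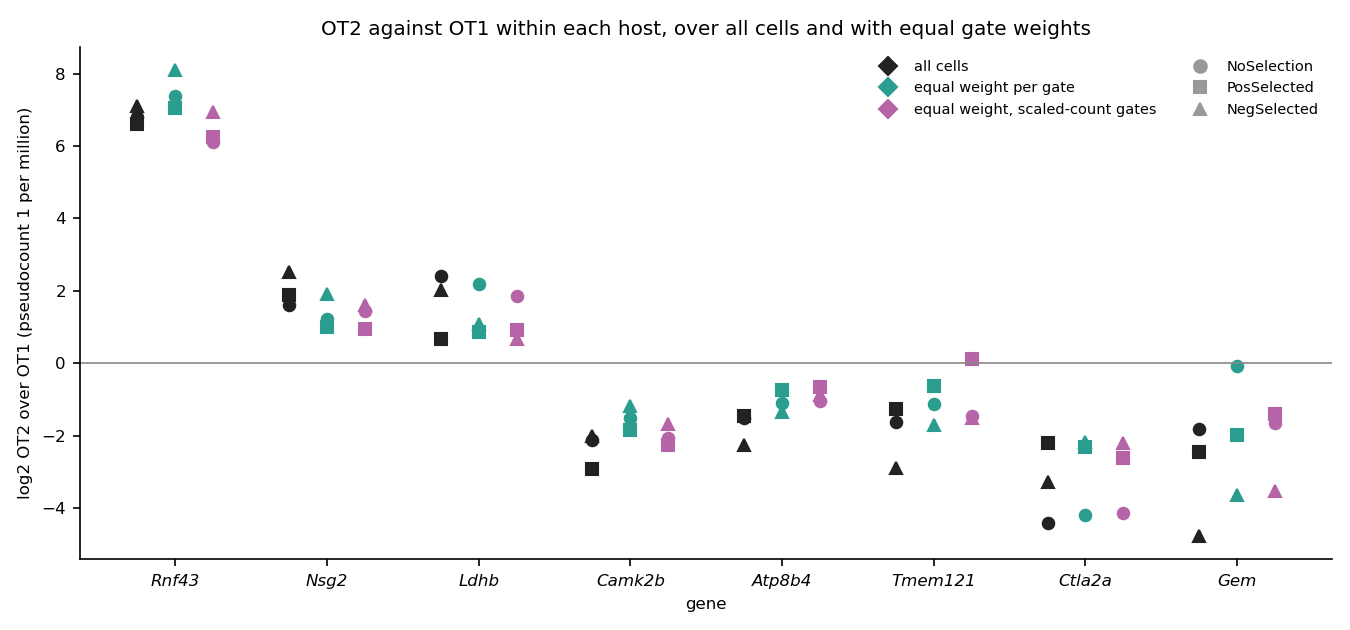
Log2 ratio of OT2 over OT1 within each host for the 8 genes, over all cells (black), with equal weight for each gate that had at least 10 cells in both mice (green), and with gates from scaled antibody counts (purple); shapes are hosts and the grey line marks no difference. Rnf43 stays between 6.12 and 8.09, and the other genes move towards 0 in most hosts, with Gem at -0.09 in NoSelection hosts and Tmem121 at 0.13 with scaled gates in PosSelected hosts.

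CD24, a surface protein that falls as thymocytes mature, split each mouse and gate at its own median. Ctla2a was higher in the CD24-high part, by a log2 fold change of 0.69 (SE 0.15, adjusted p = 0.00930), 1 of the 8 genes called where 5.36% of 7711 genes were and 2.36% were higher. Tmem121 was at 0.58 (SE 0.18, adjusted p = 0.0751). The median over the 8 was 0.18, against 0.02 over all genes. The Ctla2a call was lost without the OT1 PosSelected mouse (adjusted p = 0.0651) and with DESeq2 (adjusted p = 0.403).

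CD4-CD8- cells were then divided by RNA of the 5 gamma delta markers, into cells with at least 2 such UMIs and cells with 0. The OT1 gate held 456 marker cells of 536 (85.1%) and the OT2 gate 78 of 191 (40.8%), and 54 and 105 cells without a marker UMI. Gem had 640 UMIs in OT1 and 24 in OT2 marker cells, and 1 and 0 in cells without. Tmem121 had 865 and 70 UMIs in marker cells, and 2 and 0 in cells without. Within the CD4-CD8- gate both genes were thus found almost wholly in cells with gamma delta marker RNA, in both lines. The other gates were not split by these markers. Marker cells were also deeper, at a median of 5417.5 RNA UMIs against 4816.5 in OT1 and 6161 against 2994 in OT2. Over the 5 mice with at least 10 cells on both sides, marker cells were higher in Gem (log2 fold change 5.77, SE 0.65, adjusted p = 2.20e-06), Tmem121 (5.68, SE 0.53, adjusted p = 1.08e-07), Atp8b4 (2.56, SE 0.32, adjusted p = 1.18e-05) and Ctla2a (2.13, SE 0.54, adjusted p = 0.0160), and lower in Nsg2 (-2.24, SE 0.33, adjusted p = 8.12e-05). The sizes for Gem and Tmem121 depend on the prior count. So 5 of the 8 genes were called where 6.34% of 4289 genes were, 4 higher (3.54% of genes) and 1 lower (2.80%). The median was 1.51 over the 8 against 0.01 over all genes. The lines also differed in their share of marker cells, so the choice by line favours genes that differ in this split. Camk2b (0.88, SE 0.42, adjusted p = 0.294), Rnf43 (-0.89, SE 0.32, adjusted p = 0.117) and Ldhb (-1.19, SE 0.39, adjusted p = 0.0820) did not pass.

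That split sets CD4-CD8- cells against a group that scaled thresholds mostly placed elsewhere. Of the 159 CD4-CD8- cells without a marker UMI, 21 (13.2%) stayed CD4-CD8- with scaled thresholds, against 488 of the 534 marker cells (91.4%). In the scaled gate 504 of 547 cells (92.1%) were marker cells, and too few without a marker were left to repeat the test. The OT2 NoSelection mouse, with 8 cells without a marker UMI, was not in the fit. The Ctla2a call was lost without the OT1 NoSelection, PosSelected or NegSelected mouse (adjusted p = 0.133, 0.259 and 0.114) and with DESeq2 (adjusted p = 0.729).

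**Figure D4:**
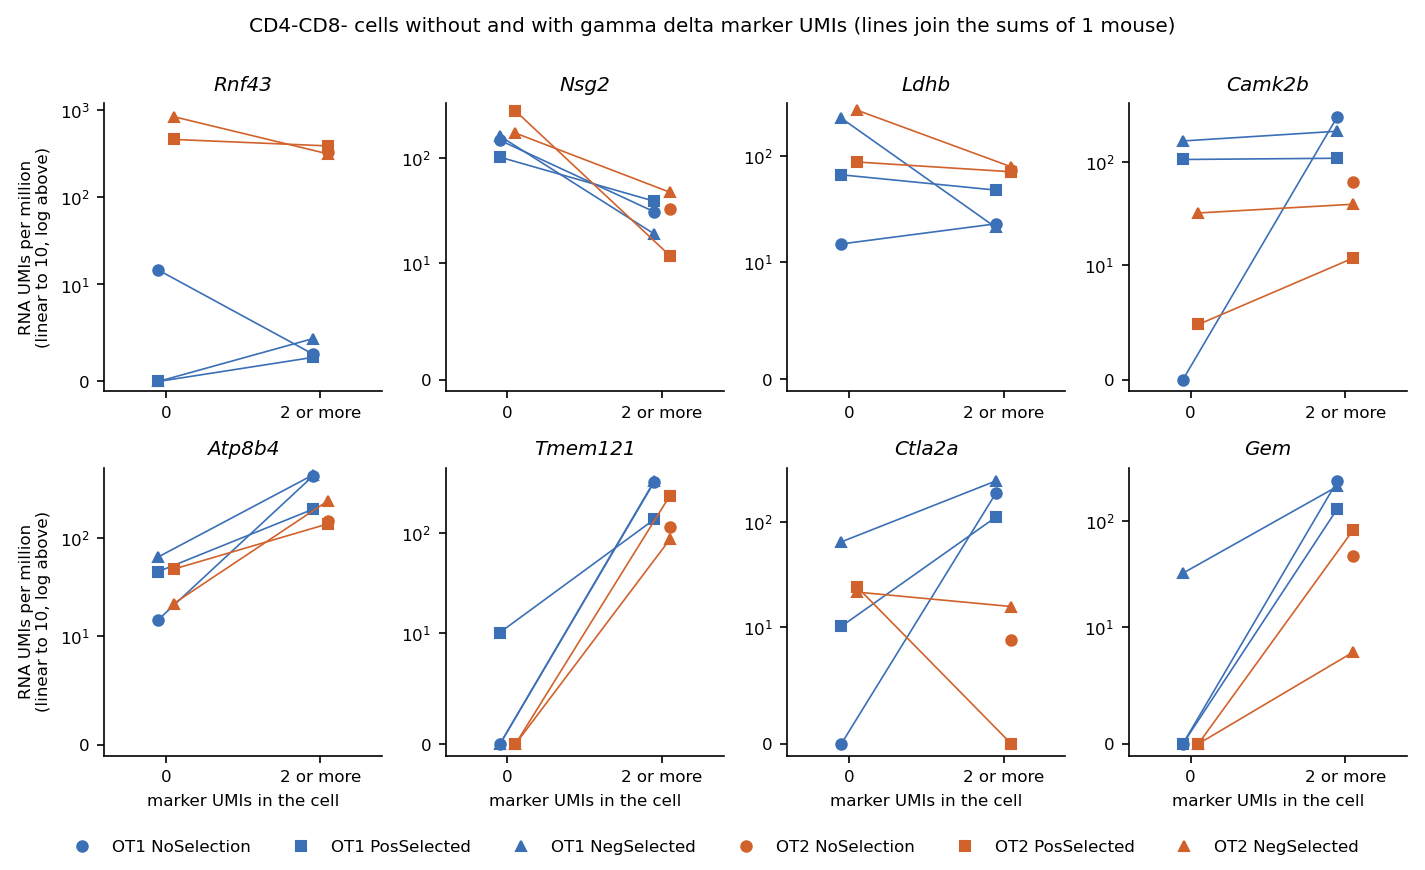
RNA level in CPM in CD4-CD8- cells with 0 and with 2 or more gamma delta marker UMIs; lines join the sums of 1 mouse, blue is OT1, orange OT2, shapes are hosts, and sums under 10 cells are left out. The axis is linear up to 10 and logarithmic above. Gem and Tmem121 rise from near 0 in both lines, while Ctla2a is above 100 in the marker cells of every OT1 mouse and under 20 in those of every OT2 mouse.

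Within the marker cells alone the lines were compared a last time, as a description, since the genes were chosen for this difference. Ctla2a was at 184 CPM in OT1 (exact interval 169 to 199) and 9.06 CPM in OT2 (2.94 to 21.1), a ratio of 20.3 (8.64 to 62.7). By mouse it was at 187, 111 and 244 CPM in OT1 and at 8.85, 0 and 15.6 CPM in OT2. Every OT1 mouse was above every OT2 mouse. Whether the lines' marker cells were alike in marker content was not tested, and in cells with 0 marker UMIs Ctla2a had 4 UMIs in OT1 and 7 in OT2, an OT2 to OT1 ratio of 1.60 (0.41 to 7.47). Gem was at 205 against 43.5 CPM, a ratio of 4.72 (3.14 to 7.42), and Camk2b at 211 against 50.7 CPM, a ratio of 4.17 (2.86 to 6.32). Atp8b4 was at 374 against 170 CPM, a ratio of 2.20 (1.78 to 2.74), and Tmem121 at 277 against 127 CPM, a ratio of 2.19 (1.71 to 2.83). For Tmem121 the mice overlapped, at 323, 137 and 330 CPM in OT1 and 115, 234 and 86.0 CPM in OT2. Nsg2 was at 29.2 and 32.6 CPM, with OT1 to OT2 ratio 0.89 (0.54 to 1.58), so its line difference was not detectable there at this depth. Rnf43 remained at 3.20 against 335 CPM, and Ldhb at 28.5 against 74.3 CPM, with an OT2 to OT1 ratio of 2.60. Scaled thresholds gave OT1 to OT2 ratios of 22.5 for Ctla2a, 3.40 for Gem, 3.39 for Camk2b, 2.37 for Atp8b4 and 2.29 for Tmem121.

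Rag1 and Rag2, the recombinase genes of cells still rearranging their receptors, split CD4+CD8+ cells into 10 or more on both sides in the OT2 NegSelected mouse alone, so no test was made. There Ldhb was at 728 CPM in 16 cells with a Rag UMI (exact interval 466 to 1083) and 274 CPM in 44 cells without (184 to 394). Nsg2 was at 637 CPM (394 to 974) and 236 CPM (153 to 349). Rnf43 was at 819 CPM (540 to 1191) and 917 CPM (743 to 1118), intervals that overlap widely. Ldhb and Nsg2 thus had more RNA in the cells with a Rag UMI of this mouse, with intervals that did not overlap. Ctla2a was at 60.7 against 28.3 CPM, from 2 and 3 UMIs. Camk2b was at 30.3 against 28.3 CPM, from 1 and 3 UMIs, too few to tell a difference.

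The genes most like each in level were found over 17 sums of a mouse and gate with at least 20 cells, among 3559 genes, from Pearson's r of log2(CPM + 10). The sums share mice and gates, so r is a description. Rnf43 was most like Xist (r = 0.98), the T cell receptor beta segment gene Trbv12-2 (r = 0.97) and Erdr1 (r = 0.93), all genes that set the lines apart. Nsg2 was most like Cd4 (r = 0.94), and Ldhb like Ssbp2 (r = 0.92), Ptms (r = 0.91) and Nabp1 (r = 0.91). Tmem121 and Gem shared Cpa3, a mast cell and progenitor protease gene (r = 0.93 and 0.92), and each was like a gamma delta constant segment gene, Trgc4 (r = 0.90) and Trgc1 (r = 0.89). Crip1 was like Atp8b4 (r = 0.94), Tmem121 (r = 0.92) and Gem (r = 0.88). Camk2b was most like Glod4 (r = 0.86), and Ctla2a like Gem (r = 0.83). Among the 8 themselves, Tmem121 with Gem (r = 0.85) and Atp8b4 with Gem (r = 0.83) were the closest pairs.

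The genes lie on 6 chromosomes: Rnf43 (start 87663087), Nsg2 and Camk2b on chromosome 11, Ldhb on 6, Atp8b4 on 2, Tmem121 on 12, Ctla2a on 13 and Gem on 4 (GRCm38.p6). Of the nearest tested genes on either side of each, 16 in all, none was called between the lines, where 1.07% of all 9092 genes were. For Rnf43 these were Mtmr4 (log2 fold change 0.15, SE 0.31) and Supt4a (0.17, SE 0.17). Within 1 Mb of its start 20 genes were tested, none called, with values from -1.08 (Cuedc1, SE 0.35) to 2.09. With so low a share called over all genes, the lack of a call among so few says little about the region. The highest were Tspoap1 (2.09, SE 0.77) and Septin4 (1.92, SE 0.53), with starts at 95.1 and -96.4 kb from that of Rnf43. The lowest adjusted p among the 16 was that of Tedc1 beside Tmem121 (-1.63, SE 0.34, adjusted p = 0.0822), and Ighm on its other side was at -0.48 (SE 0.15).

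Relatives and pathway partners of the 8 genes were read from 8 lists of 75 genes, of which 46 were tested between the lines. Of these, 1 was called, where 1.07% of all genes were. It was Ctsl, which encodes the protease cathepsin L, higher in OT2 by a log2 fold change of 1.52 (SE 0.21, adjusted p = 0.0176 in edgeR). Ctsl was at 33.2, 26.9 and 31.3 CPM in OT1 and 122, 55.9 and 102 CPM in OT2. Over all cells, Ctsl was thus higher in the line in which Ctla2a, from the family of its inhibitors, was lower. In gamma delta marker cells, where Ctla2a was higher, Ctsl was at 0.99 (SE 0.53, not called). Ctsl was not compared between the lines within a gate, and a link between the genes was not tested. The median over the 46 was 0.01, as over all genes. In the Wnt list 0 of 10 tested genes were called between the lines, with a median of 0.36. Ldha, the other main lactate dehydrogenase subunit gene, was at 841, 991 and 880 CPM in OT1 and 688, 753 and 716 CPM in OT2 (log2 fold change -0.36, SE 0.13, not called). Camk2d and Camk2g, the other kinase II subunit genes measured, were at -0.19 (SE 0.21) and -0.01 (SE 0.23), not called. Ctla2b, the close relative of Ctla2a, reached at most 1.61 CPM, and reads of this similar pair that were assigned to the other gene cannot be told apart here.

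Over the gates, 38 of the 75 list genes were tested. Between CD4+CD8+ and CD4-CD8- cells 2 were called higher, Camk1d (1.32, SE 0.27) and Camk4 (0.88, SE 0.18), and 4 lower, Myc (-1.74, SE 0.43), Camk2d (-1.07, SE 0.30), Ctss (-2.22, SE 0.63) and Cst7 (-4.46, SE 1.10). From CD4+CD8+ to CD4+CD8- cells Ctss was called higher (3.68, SE 0.60), and Tcf7 (-0.83, SE 0.20), Camk4 (-0.72, SE 0.20) and Ctsl (-2.02, SE 0.53) lower. In gamma delta marker cells Camk2d (1.27, SE 0.26) and Calm3 (0.88, SE 0.23) were called higher and Lef1 (-0.87, SE 0.24) and Eno1 (-0.86, SE 0.20) lower. In the CD24-high part Ctss (-1.05, SE 0.17) and Cst7 (-1.02, SE 0.18) were called lower. Over all genes, 3.96% were called between CD4+CD8+ and CD4-CD8- cells and 4.48% between CD4+CD8- and CD4+CD8+ cells. The shares were 6.34% in the marker split and 5.36% in the CD24 split. List genes are given here for raw thresholds alone. In the host contrasts edgeR called 0 of the 46 tested.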

How the data were processed

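Whole-number RNA and antibody UMI counts for 1331 cells of 6 mice were deposited by the authors, made with Cell Ranger 8.0.1 and Seurat on mm10 per the submitters' processing notes. Receptor sequence libraries were not used here. The 8 genes, the gene lists and the tests were chosen with earlier results of these data known. Cells were assigned to mice by hashtag, and no doublet caller was run. Antibody gates came from a 2-component Gaussian mixture on log2(count + 1) (scikit-learn 1.9.0), with thresholds of 82.7 CD4 and 52.9 CD8A counts; 112 and 170 cells lay within 0.5 log2 units of them. Raw RNA counts were summed per mouse, or per mouse and gate with at least 10 cells, and tested in R 4.3.3 by the quasi-likelihood method of edgeR 4.0.16, after filterByExpr and TMM scaling, with Benjamini-Hochberg adjustment over all genes tested and calls at 0.05, with DESeq2 1.42.0 as the alternative. Gate, CD24 and marker fits had mouse as a block. The code was tested on simulated data. Intervals are exact (Poisson, Clopper-Pearson or conditional ratio, 95%) and cover counting error only; with 1 mouse per receptor and host, depth and the number of mice limit the precision. Named were the 8 genes, list members, the 3 most correlated genes (mean level 50 CPM or more) and the nearest tested gene on each side.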

Additional observations from a re-analysis of the deposited data

Results flagged for a closer look

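Ldhb moved in opposite directions between hosts in the lines: the log2 ratio of PosSelected to NoSelection was 0.80 in OT1 and -0.97 in OT2, 1 mouse per value, and this difference was not tested. Ldhb also differed in direction between gates. CD4+CD8- minus CD4-CD8- cells was 36.6, 78.4 and 39.2 CPM in OT1 (NoSelection, then PosSelected, then NegSelected) and -24.4 and -67.9 CPM in the OT2 PosSelected and NegSelected mice, a difference not tested by itself; over all gates the receptor by gate terms gave an adjusted p of 0.723 for Ldhb in edgeR. Gem did the same between CD4-CD8+ and CD4-CD8- cells, at -209, -96.5 and -132 CPM in the OT1 mice in that order and 138.6 and 13.1 CPM in the OT2 NoSelection and NegSelected mice. That difference was also not tested by itself, the terms over all gates gave Gem an adjusted p of 0.216 in edgeR, and with thresholds on scaled antibody counts OT2 CD4-CD8+ cells had 0 Gem UMIs.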

How the results depend on the processing

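Of the 8 genes, PosSelected minus NoSelection called 2 with DESeq2, 5 with no filter on low counts, 3 without cells above the 95th percentile of UMIs (33, 280 and 99 genes called in all) and 0 to 5 when 1 mouse was left out. NegSelected minus PosSelected called 5 with no filter (98 genes) and 0 to 3 with 1 mouse left out. CD4-CD8+ minus CD4+CD8+ called 1 with no filter, 3 with thresholds 0.5 log2 units lower and 3 with scaled thresholds (110, 68 and 100 genes). CD4+CD8- minus CD4+CD8+ called 1 with no filter, 0 from sums of at least 20 cells, 1 with higher and 1 with lower thresholds (293, 82, 217 and 107 genes), and 0 to 2 with 1 mouse left out. CD4+CD8+ minus CD4-CD8- called 8 with scaled thresholds (505 genes). The receptor by gate terms called 1 with no filter (124 genes) and 0 to 1 with 1 mouse left out. The CD24 contrast called 0 with DESeq2, 2 with no filter, 2 without the cells of most UMIs (118, 535 and 185 genes) and 0 to 1 with 1 mouse left out. The gate-weighted log2 ratio of Rnf43 was 6.94 with at least 20 cells per gate, 5.42 with a pseudocount of 10 CPM and 6.43 with scaled thresholds, and that of Camk2b was -1.999 with scaled thresholds. The cause of these changes was not tested. The scaled thresholds were chosen after seeing the data. The alternatives for the Rag split were not run, since 1 mouse had both sums, and the marker split could not be fitted with scaled thresholds for the same reason. Host was a term of the fit over mice and mouse a block in the others. No paired analysis was possible by replicate number because each group holds replicate 1 alone. Low OT1 counts limit the Rnf43 ratios.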
